A study of Mus musculus with 20 samples.

Results

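The clustered protocadherins are the genes whose symbol in the authors' deposited table begins with Pcdha, Pcdhb or Pcdhg, silent ones included. They made up 58 of the 46939 rows of that table, with 14 Pcdha, 22 Pcdhb and 22 Pcdhg rows, all given the same locus on mouse chromosome 18 from 36930183 to 37841873 (mm10, 911.69 kb). Their CTCF sites are the peaks of 4 deposited lists inside that locus, which merged into 87 of the 54729 CTCF regions of the series. RNA and CTCF binding were each measured in 2 libraries of mouse embryonic stem cells that lack thymine DNA glycosylase (TDG KO) and in 2 libraries of wild-type (WT) embryonic stem cells. Lines of both genotypes had a 129 strain background and were grown with LIF and serum on arrested embryonic fibroblasts, which were depleted by serial plating. The series title asks how 5-carboxylcytosine, an oxidised cytosine that TDG removes from DNA, bears on the binding of CTCF to weak sites. No label tells whether replicate libraries go back to separate cultures, and p-values cover no more than the difference between libraries, possibly a technical one. If each genotype was 1 cell line, genotype and line cannot be told apart.

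Clustered protocadherins are cadherin-like surface proteins that bind copies of themselves on neighbouring cells. In the brain each neuron is known to use its own random choice of alternate isoforms, which marks its branches as its own, while the C-type isoforms at the end of the Pcdha and Pcdhg groups are used more broadly. In Pcdha and Pcdhg every variable exon has its own promoter and is spliced to constant exons shared within the group, whereas Pcdhb genes stand alone. CTCF bound at the promoters, and in Pcdha also inside the variable exons, is known to hold a chosen promoter at a distant enhancer with cohesin, and DNA methylation of the promoters is known to keep unchosen isoforms silent.

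Tdg RNA was 5.50 and 4.74 FPKM in the TDG KO libraries, against 28.1 and 30.4 FPKM in the WT libraries. FPKM counts fragments for each kilobase of a transcript and is scaled to the fragments mapped in a library. The table holds no counts, so the depth is unknown, but steps between low values put it at 0.991 and 0.928 in the TDG KO libraries and 0.858 in WT replicate 2, relative to WT replicate 1. All 8 listed stem cell markers, Pou5f1, Nanog and Sox2 among them, were above 0 in every library, with summed levels of 2950 and 3061 FPKM in TDG KO and 3541 and 3753 FPKM in WT. Of these 8, 2 were called higher in TDG KO, Nanog among them, and 3 lower, Pou5f1 among them. The counts were the same with upper-quartile scaling. All 24 listed embryonic fibroblast markers were also above 0, and their summed level was 634 and 690 FPKM in TDG KO, against 902 and 670 FPKM in WT. Vim alone gave 318 and 354 FPKM of that sum in TDG KO, against 248 and 204 FPKM in WT. It was the 1 fibroblast marker called higher in TDG KO, while 14 of the 21 tested were called lower. Over all tested genes 24.4% were called higher and 29.5% lower. In every one of these 24 markers, WT replicate 1 exceeded WT replicate 2.

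Most of the locus was close to silent in both genotypes. Of the 58 rows, 37 had a mean under 0.1 FPKM and 4 had a mean of at least 1 FPKM, all 4 of them in Pcdhg. Pcdha6, Pcdhac1 and Pcdhb10 were listed at 0 in all 4 libraries, and 34 rows were above 0 in all 4, of which 22 were Pcdhg, 10 Pcdhb and 2 Pcdha. The symbol Pcdhga8 is given to 2 rows, and the gene name table assigns 1 of them, ENSMUSG00000023036, to Pcdhgc4, so that row is called Pcdhgc4 here. Pcdha11 also has 2 rows, ENSMUSG00000007440 and ENSMUSG00000102206, and no row carries the symbol Pcdha10.

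**Figure D1:**
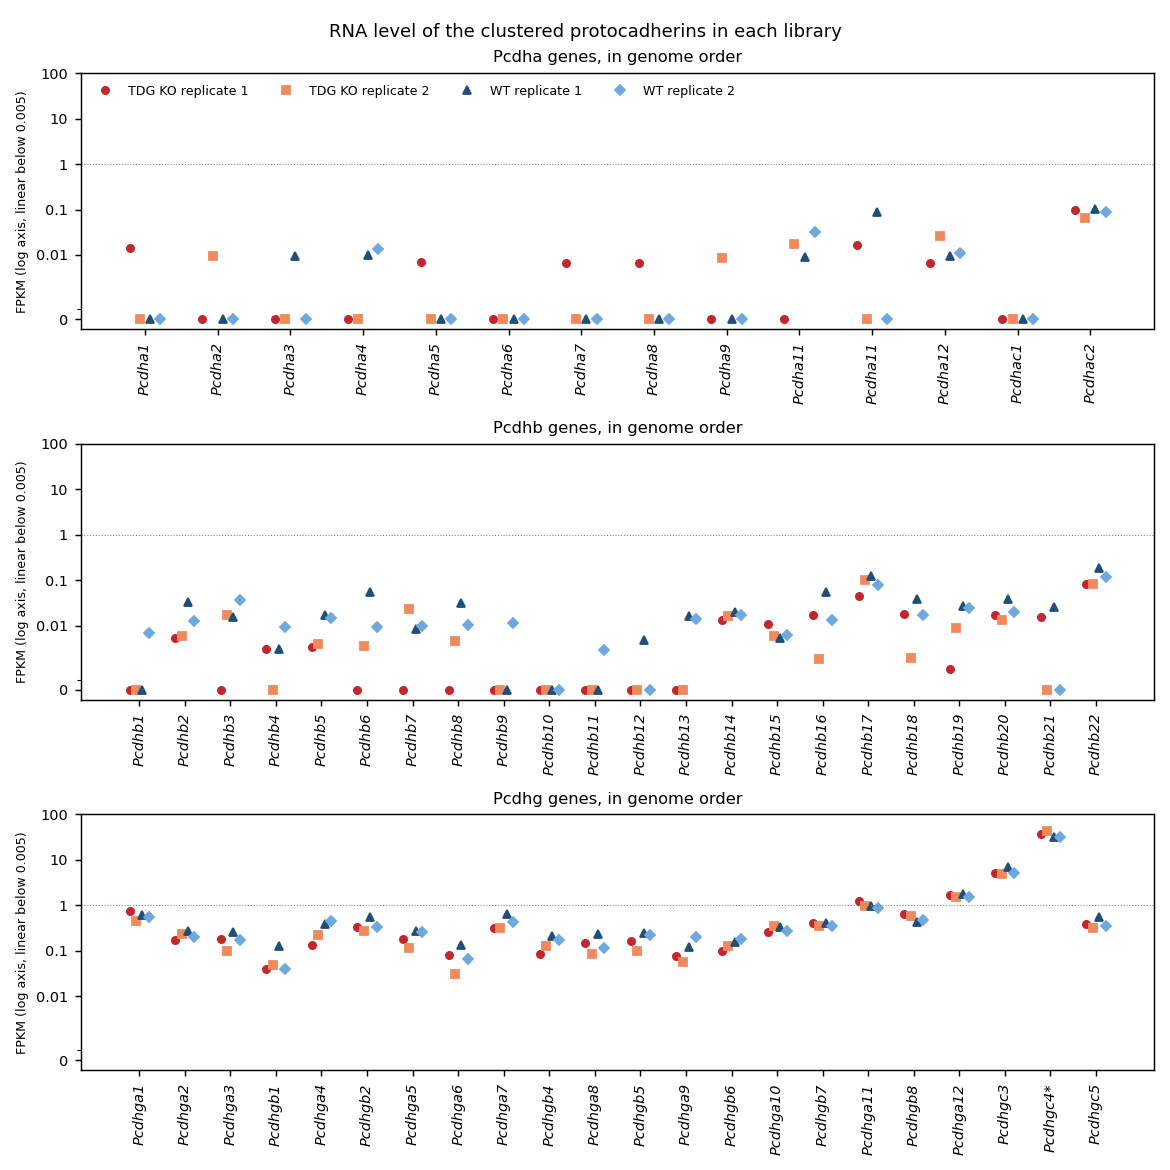
RNA level (FPKM, log axis that is linear below 0.005) of each clustered protocadherin row in genome order, with 1 point for each of the 2 TDG KO and 2 WT libraries and a dotted line at 1 FPKM. The asterisk marks the row listed as Pcdhga8 and assigned to Pcdhgc4; it lies near 36.1 FPKM on average, while Pcdha and Pcdhb rows lie at or below 0.184 FPKM in every library.

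The 3 C-type rows of Pcdhg held most of the summed level of the locus, with 43.6 and 47.8 of 50.9 and 54.3 FPKM in TDG KO, against 39.7 and 37.4 of 48.8 and 44.9 FPKM in WT, nearly all of it in Pcdhgc4 and Pcdhgc3. Pcdhgc4, the isoform known to be needed for the survival of some neurons in mouse, had 37.9 and 42.5 FPKM in TDG KO, against 32.0 and 31.9 FPKM in WT. Both TDG KO libraries were above both WT libraries, and the log2 change was 0.32 (SE 0.072, limma on log2(FPKM + 1), Benjamini-Hochberg adjusted p = 0.00944). It stayed higher under each alternative tried, with log2 changes from 0.24 to 0.44 and adjusted p from 0.00216 to 0.0463. In the authors' deposited table the same row had a log2 change of 0.33, its sign turned here to TDG KO over WT, and a q-value of 0.45, so the authors' test did not call it. All members share 1 listed locus and Pcdhg isoforms share their constant exons, so fragments from those exons cannot be assigned to 1 isoform, and the sources used here do not tell how the authors' counting divided them. In bulk RNA, a change in the share of cells that use the gene and a change in RNA per cell cannot be told apart.

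Pcdhgc3, known to shape dendrite branching in mouse cortex, was the next highest. It had 5.26 and 4.99 FPKM in TDG KO, against 7.15 and 5.12 FPKM in WT. The groups overlapped because WT replicate 2 lay between the TDG KO libraries. The log2 change of -0.21 (SE 0.136) did not pass the test (limma with Benjamini-Hochberg adjustment, adjusted p = 0.238). WT replicate 1 alone was higher than the rest, and without WT replicate 2 the same fit gave a log2 change of -0.41 and an adjusted p of 0.029, against -0.00017 without WT replicate 1. Pcdhgc5, the remaining C-type Pcdhg isoform, had 0.383 and 0.315 FPKM in TDG KO, against 0.558 and 0.351 FPKM in WT, with overlapping groups.

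Among the alternate Pcdhg isoforms, Pcdhga12 and Pcdhga11 were highest. Pcdhga12 had 1.68 and 1.51 FPKM in TDG KO, against 1.79 and 1.54 FPKM in WT, and its log2 change of -0.036 (SE 0.106, limma adjusted p = 0.794) turned positive with upper-quartile scaling and without either of 2 libraries. Pcdhga11 had 1.23 and 0.958 FPKM in TDG KO, against 0.959 and 0.885 FPKM in WT, with a log2 change of 0.12 (SE 0.117, limma adjusted p = 0.414). Neither differed beyond the spread between libraries. Pcdhga1 had 0.731 and 0.453 FPKM in TDG KO, and both WT libraries, at 0.610 and 0.560 FPKM, lay between these.

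Of the 4 members with a mean of at least 1 FPKM, limma called 1 higher in TDG KO and 0 lower, where it called 24.4% of all 12035 tested genes higher and 29.5% lower. The higher member was Pcdhgc4, which was also the 1 member with an unadjusted p under 0.05. With upper-quartile scaling, which moved the median log2 change of all tested genes to 0.066, against -0.044 with the values as deposited, 3855 genes were called higher and 2214 lower, and Pcdhgc4 was again the 1 member called. Lowering the filter to a mean of 0.1 FPKM brought in 21 members, 1 of which was called higher and 1 lower, where 22.2% of all genes were called higher and 22.3% lower.

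The added lower member was Pcdhga4, an alternate isoform named here because it passed the test and not by the naming rule. Pcdhga4 had 0.131 and 0.224 FPKM in TDG KO, against 0.381 and 0.458 FPKM in WT. Both TDG KO libraries were below both WT libraries. The authors' deposited table gave it a q-value of 0.813, and it called 0 of its 21 tested members and 4450 of its 16262 tested genes. At this filter the log2 change was -0.27 (SE 0.078, limma adjusted p = 0.0339) with a pseudocount of 1 and -0.92 (SE 0.285, limma adjusted p = 0.0401) with a pseudocount of 0.1, a setting chosen after seeing the data. Pcdhgb8 was, beside Pcdhgc4, the member with both TDG KO libraries above both WT libraries, at 0.634 and 0.586 FPKM in TDG KO against 0.436 and 0.487 FPKM in WT, and it did not pass the test at this filter (limma adjusted p = 0.176).

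**Figure D2:**
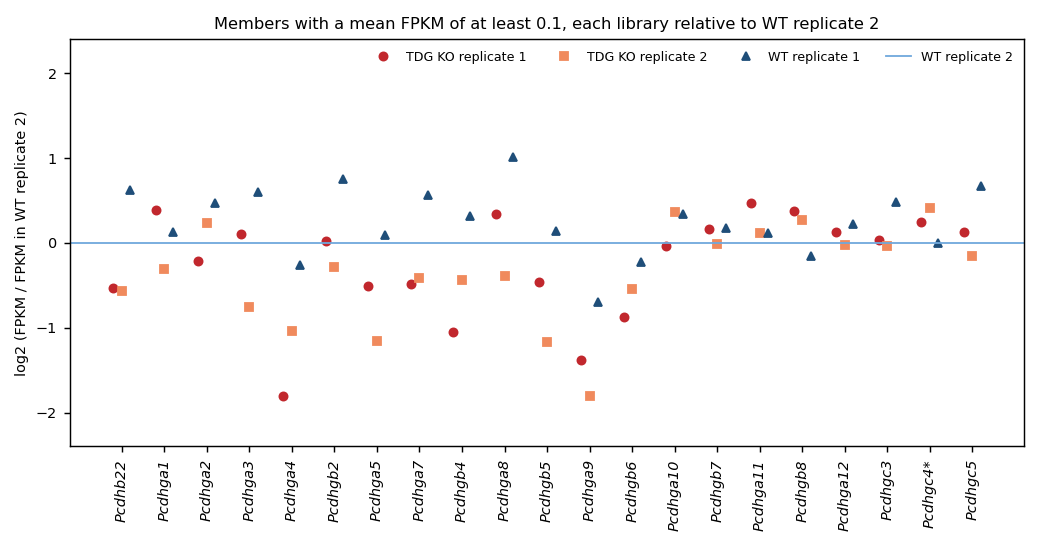
Log2 ratio of each library's FPKM to that of WT replicate 2 for the 21 members with a mean of at least 0.1 FPKM, in genome order; the horizontal line stands for WT replicate 2. Pcdhga4 and Pcdhga9 lie furthest below the line in TDG KO, Pcdhgc4 (asterisk) lies above it in both TDG KO libraries, and WT replicate 1 lies above the line for most members.

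Taking Pcdhg without Pcdhgc4, the summed level was 12.6 and 11.4 FPKM in TDG KO, against 15.9 and 12.4 FPKM in WT. TDG KO replicate 1 lay above WT replicate 2, so the groups overlapped. With Pcdhgc4 the Pcdhg sum was 50.5 and 53.9 FPKM in TDG KO, against 47.9 and 44.3 FPKM in WT. Its log2 change was 0.18 with Pcdhgc4 and -0.23 without it. Pcdhgc4 held 75.1% and 78.9% of the Pcdhg sum in TDG KO, against 66.8% and 72.0% in WT.

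Pcdhb genes, which have no shared constant exons, were low in all libraries. Their summed level was 0.235 and 0.289 FPKM in TDG KO, against 0.696 and 0.434 FPKM in WT. The groups did not overlap, and the log2 change of the sum was -1.08, or -0.74 without WT replicate 1. A comparison of 2 with 2 libraries cannot give an exact permutation p under 0.333. The values rest on few fragments. Of the Pcdhb genes, 14 had a mean under 0.1 FPKM and values above 0 in at least 3 libraries. Their FPKM values were multiplied by the relative depth of each library given above. In 12 of the 14 genes the products were whole multiples of 1 step within a tolerance of 0.06. These steps summed to 22 and 20 in TDG KO, against 90 and 39 in WT.

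Pcdhb22 was the highest of them, with 0.0826 and 0.0805 FPKM in TDG KO, against 0.184 and 0.119 FPKM in WT. Pcdhb17 had 0.0447 and 0.0989 FPKM in TDG KO, against 0.120 and 0.0775 FPKM in WT. Pcdhb22 had both TDG KO libraries below both WT libraries, while Pcdhb17 overlapped. Pcdhb20 had 0.0169 and 0.0136 FPKM in TDG KO, against 0.0378 and 0.0196 FPKM in WT. Pcdhb16 had 0.0170 and 0.00303 FPKM in TDG KO, against 0.0535 and 0.0131 FPKM in WT, and Pcdhb18 had 0.0177 and 0.00314 FPKM in TDG KO, against 0.0380 and 0.0170 FPKM in WT. In Pcdhb16 and Pcdhb18, TDG KO replicate 1 and WT replicate 2 were close and WT replicate 1 stood above the rest. None of these 5 genes reached the 1 FPKM filter, and with no filter limma called no Pcdhb gene (for Pcdhb22, adjusted p = 0.148).

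Both TDG KO libraries were below both WT libraries in 17 members, 9 of them Pcdhb, 7 Pcdhg and 1 Pcdha, and above both in 2. Over all genes above 0 in a library the shares were 29.6% below and 31.7% above. The 17 of 55 members above 0 lay near the share below, while the 2 lay under the share above. These shares are not matched for level, and 37 of the 58 members had a mean under 0.1 FPKM. Among all genes with a mean above 0 and under 0.1 FPKM, 10.7% were below and 21.1% above. The TDG KO mean was lower than the WT mean in 42 members and higher in 13, but these counts were not taken over all genes and have no background. For Pcdhb without Pcdhb22 the count below was 8 of 20, where 10.7% of all genes with a mean above 0 and under 0.1 FPKM were below. For Pcdhg without Pcdhgc4 and at a mean of at least 0.1 FPKM it was 7 of 19, where 38.1% of all genes at that level were below. Among all genes with a mean of at least 0.1 and under 1 FPKM the share below was 23.7% and the share above 40.0%.

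WT replicate 1 was the highest library in 31 members, 14 of them Pcdhb and 14 Pcdhg, where it was highest in 23.2% of all genes above 0. WT replicate 1 was also the highest library in 21 of 24 fibroblast markers. Of the 21 fibroblast markers tested, 14 fell and 1, Vim, rose in TDG KO (median log2 change -0.62, against -0.044 over all tested genes), and with upper-quartile scaling 10 fell and 1 rose. The largest falls were those of Dcn and Col3a1. Dcn, a proteoglycan of connective tissue, had 4.04 and 4.02 FPKM in TDG KO, against 13.8 and 7.91 FPKM in WT. Col3a1, a fibrillar collagen, had 15.3 and 19.0 FPKM in TDG KO, against 57.1 and 29.8 FPKM in WT. Col1a1 had 25.0 and 29.0 FPKM in TDG KO, against 36.6 and 21.7 FPKM in WT, and did not pass the test (limma adjusted p = 0.81). Col5a1, Col6a2, Thy1, Loxl1 and Twist1 did not pass it either. The part of feeder RNA in the Pcdhb and Pcdhg values was not tested.

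Pcdha was the quietest group, with a summed level of 0.157 and 0.127 FPKM in TDG KO, against 0.228 and 0.144 FPKM in WT, which overlapped. Pcdhac2, a C-type isoform known to space serotonergic axons in mouse, held much of it, at 0.0994 and 0.0660 FPKM in TDG KO against 0.103 and 0.0877 FPKM in WT. Of the 2 Pcdha11 rows, ENSMUSG00000102206 had 0.0164 and 0 FPKM in TDG KO against 0.0872 and 0 FPKM in WT, and ENSMUSG00000007440 had 0 and 0.0171 FPKM in TDG KO against 0.00921 and 0.0321 FPKM in WT. Pcdha12 had 0.00655 and 0.0260 FPKM in TDG KO, against 0.00935 and 0.0109 FPKM in WT. Pcdha4 was listed at 0 in both TDG KO libraries, against 0.00995 and 0.0137 FPKM in WT. Apart from Pcdhac2 and Pcdha12, every Pcdha row was at 0 in at least 1 library, and at these levels no difference between the genotypes was detectable.

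CTCF occupied the locus densely in both genotypes. The lists held 82 and 82 peaks inside it in TDG KO, against 80 and 77 in WT, from whole lists of 48514 and 48833 peaks in TDG KO and 38303 and 37099 in WT. Of the 87 merged regions, 69 (79.3%) had a peak in all 4 lists, where 59.8% of all regions did. Cut into stretches of the same length, the genome held a median of 14 regions per stretch, and 8 of 2994 stretches held at least 87. The sources used here do not define the authors' score per peak, and a peak is therefore described by the percentile of its score within its own list, a high percentile being a high score. The median percentile of the locus was 52.7 and 49.4 in the TDG KO lists and 44.3 and 47.4 in the WT lists, and lists of different length show no change by such ranks.

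**Figure D3:**
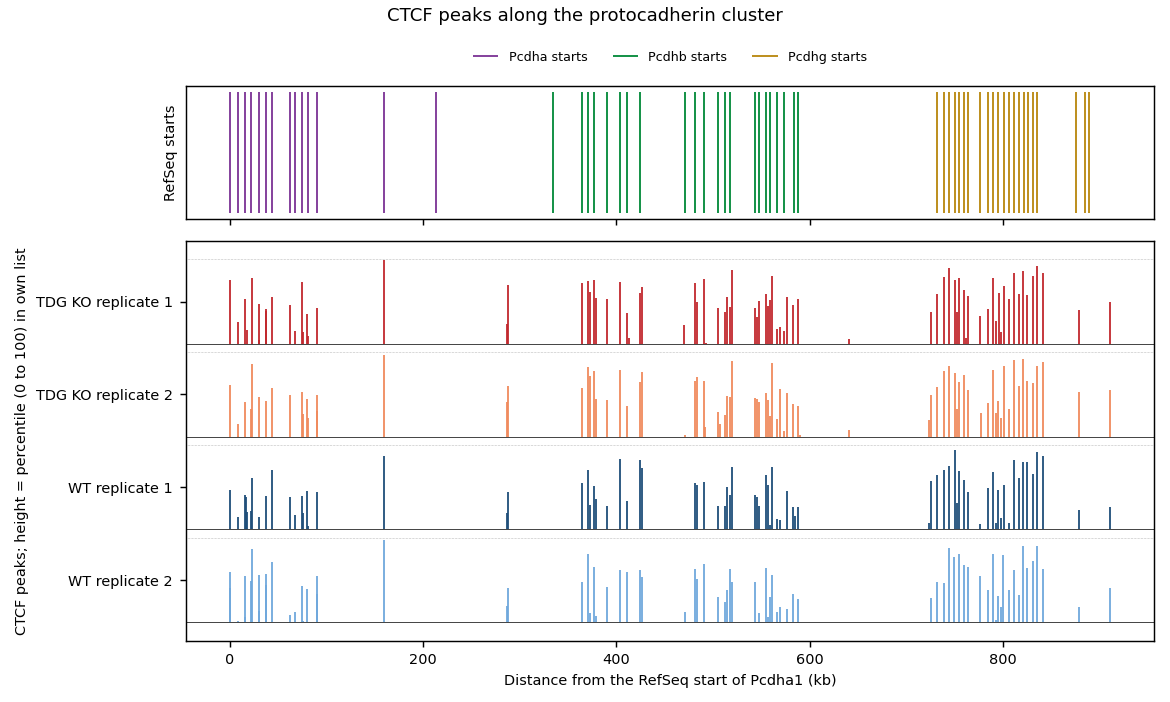
CTCF peaks of the 2 TDG KO and 2 WT lists along the protocadherin locus, as distance in kb from the RefSeq start of Pcdha1, with bar height as the percentile of the peak in its own list and gene starts drawn above. The tall bar near 160 kb in all 4 lists is the site at Pcdhac1, and all lists are empty around the last Pcdha start, Pcdhac2.

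Regions in both TDG KO lists and in neither WT list numbered 2 of 87 (2.30%), where 10.8% of all regions were of that kind. The first lay from 37504159 to 37504391 on the start of Pcdhb20, at percentiles 14.8 and 6.67 in the TDG KO lists. The second lay from 37570542 to 37570797, between Pcdhb22 and Pcdhga1, at percentiles 5.76 and 8.38. Both were thus weak peaks of their lists. No region was in both WT lists and neither TDG KO list, where 0.170% of all regions were.

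The TDG KO lists are longer, and what sets their length was not tested. When each list was held to its 37099 strongest peaks, 64 of 77 regions were in all 4 lists (background 69.0%), 0 in both TDG KO lists alone (background 2.81%) and 3 in both WT lists alone (background 1.64%). These 3 lay on the start of Pcdha9, on the start of Pcdhb19 and 2240 bp downstream of the start of Pcdhga8, at percentiles between 12.2 and 18.6 of the full WT lists. In the full lists, TDG KO peaks were also present at each of them, in both lists at Pcdhb19 and Pcdhga8 and in 1 list at Pcdha9. Which genotype had regions of its own in the locus therefore changed with the length of the lists.

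CTCF peaks sat on the starts of most protocadherins. A window of 250 bp before to 50 bp after each RefSeq start, taken as the lower coordinate because these mouse genes are transcribed toward higher coordinates, overlapped a peak in all 4 lists at 45 of 58 starts and in at least 1 list at 50, Pcdha10 included. Of 32817 RefSeq starts outside chromosome 18, 4.07% had a peak in all 4 lists and 6.27% in any. The 45 starts were 8 of 14 Pcdha, 19 of 22 Pcdhb and 18 of 22 Pcdhg. Within Pcdhg they were all 7 Pcdhgb starts, 11 of 12 Pcdhga starts and none of the 3 C-type starts.

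Starts without a nearby peak were those of Pcdhb1 and of 4 C-type isoforms. Pcdhac2, Pcdhb1, Pcdhgc3, Pcdhgc4 and Pcdhgc5 had no peak of any list within 1 kb. The promoters of Pcdhac2, Pcdhb1, Pcdhgc4 and Pcdhgc5 are known to lack the sequence element that CTCF binds in the other promoters. The nearest peak was 53478 bp away for Pcdhac2, 29439 bp for Pcdhb1, 5737 bp for Pcdhgc4 and 10204 bp for Pcdhgc5. Pcdhgc3 had a region in all 4 lists 2364 bp from its start, at percentiles 39.6 and 52.8 in TDG KO and 23.2 and 18.4 in WT. Pcdha7, Pcdha8 and Pcdhga12 had no peak on the start itself but 1 within 1 kb.

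The site at Pcdhac1, from 37089682 to 37090200, was at percentiles 98.7 and 96.4 in TDG KO and 87.5 and 97.8 in WT. It ranked highest of the locus in all lists but that of WT replicate 1, where the start site of Pcdhgb1 was highest at 93.6. Its RNA was listed at 0 in all 4 libraries. Start sites of Pcdhgb7, at percentiles 86.5 and 92.1 in TDG KO and 80.3 and 90.6 in WT, and of Pcdhga3, at 90.2 and 83.3 in TDG KO and 75.8 and 88.3 in WT, also ranked high. The site of Pcdhga12, centred 324 to 336 bp downstream of the RefSeq start, was at 91.8 and 84.2 in TDG KO and 92.3 and 90.1 in WT. At the low end, the start site of Pcdhb19 was at 17.8 and 20.5 in TDG KO and 13.0 and 12.2 in WT, and that of Pcdha2 was at 25.5 and 14.7 in TDG KO and 15.2 and 1.61 in WT. Both were present in all 4 lists.

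**Figure D4:**
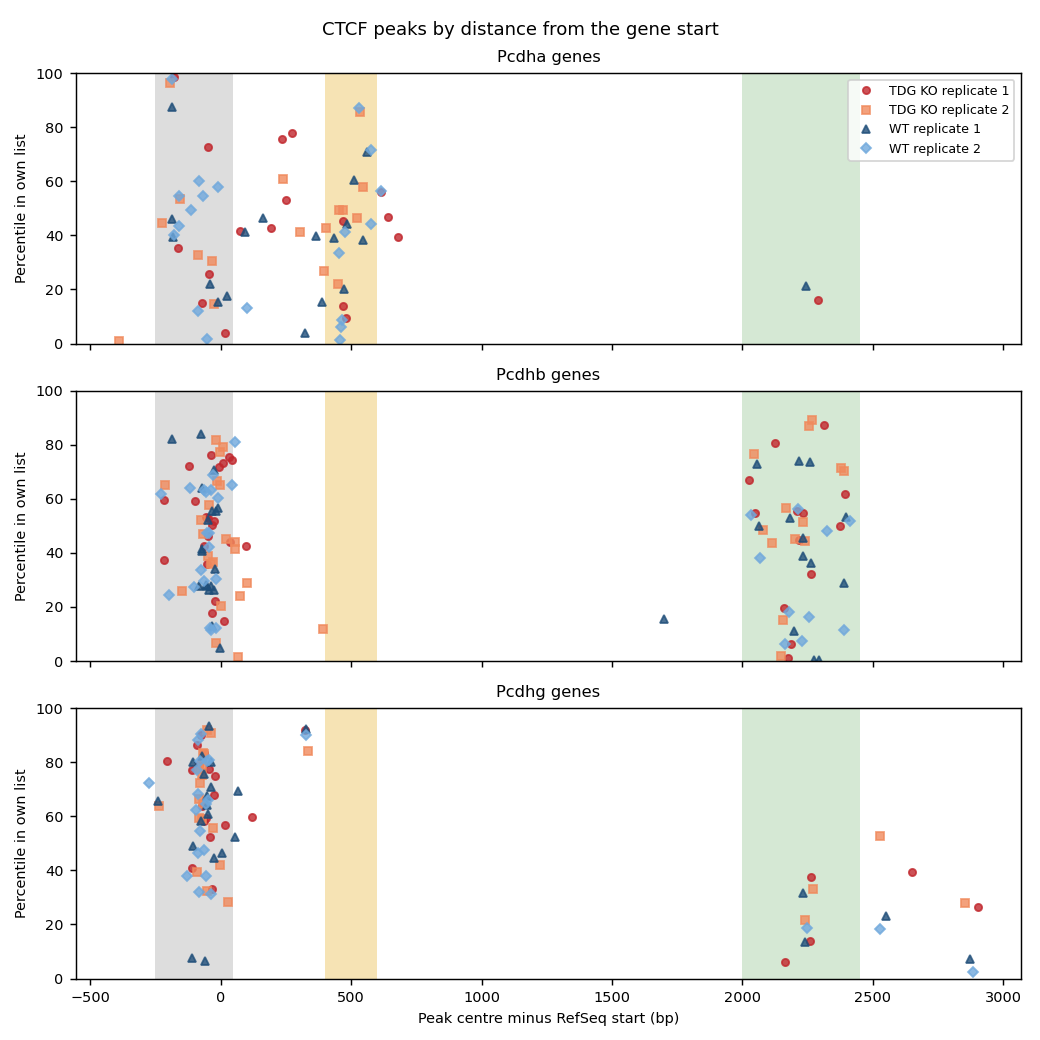
Distance in bp of each CTCF peak centre from the RefSeq start of its gene (x axis) and percentile of the peak in its own list (y axis), for Pcdha, Pcdhb and Pcdhg, with 1 mark for each of the 2 TDG KO and 2 WT lists. Grey, yellow and green bands mark the start, the exon and the downstream windows; Pcdha peaks also fall in the yellow band and Pcdhb peaks also in the green band, in both genotypes.

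Outside the starts, the second sites differed by group of genes and were seen in both genotypes. In a window from 400 to 600 bp downstream of the start, chosen after seeing the data like the one that follows, 9 of 14 Pcdha genes had a peak in all 4 lists, namely Pcdha1, Pcdha3 to Pcdha8, Pcdha10 and Pcdha12. No Pcdhb gene and 1 Pcdhg gene, Pcdhga12, did so. Over RefSeq starts outside chromosome 18 the share was 1.32% for all 4 lists and 2.74% for any list. Some peaks of Pcdha are wide enough to span both windows, so that 1 peak can count at the start and in the exon. Pcdha4 reached percentiles 77.9 and 85.8 there in TDG KO and 60.5 and 87.1 in WT, and Pcdha7, which had no start peak, reached 55.9 and 57.9 in TDG KO and 71.0 and 71.6 in WT.

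In a window from 2000 to 2450 bp downstream, 10 of 22 Pcdhb genes had a peak in all 4 lists and 6 others in 1 to 3 lists, where 1.54% of starts outside chromosome 18 had one in all 4 lists and 2.80% in any list. The 10 were Pcdhb3, Pcdhb4, Pcdhb8, Pcdhb10, Pcdhb13, Pcdhb14, Pcdhb17, Pcdhb18, Pcdhb19 and Pcdhb20. Pcdhb1, Pcdhb2, Pcdhb5, Pcdhb6, Pcdhb9 and Pcdhb16 had none. All 49 of these Pcdhb peaks were centred inside the RefSeq gene. The window held a peak in all 4 lists at 2 of 22 Pcdhg genes and at none of 14 Pcdha genes.

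The downstream sites of Pcdhb14 and Pcdhb18 ranked above their start sites in the TDG KO lists. Pcdhb14 was at percentiles 87.3 and 89.3 downstream in TDG KO and 73.6 and 48.0 in WT, and at 44.0 and 47.2 on the start in TDG KO and 40.6 and 63.4 in WT. Pcdhb18 was at 80.6 and 87.1 downstream in TDG KO and 74.0 and 56.2 in WT, and at 51.9 and 24.0 on the start in TDG KO and 4.77 and 29.6 in WT. Pcdhb18 thus had the higher rank downstream in every list, and Pcdhb14 in all but WT replicate 2. Pcdhb3 and Pcdhb4 had the start site above the downstream site in every list.

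Start and downstream sites were compared only within each list, for the Pcdhb genes with both sites in all 4 lists (n = 9). The median difference of downstream minus start percentile was 1.70 and 11.5 in the TDG KO lists, against -2.43 and -11.4 in the WT lists. The downstream site was the higher one in 5 and 6 of the 9 genes in TDG KO, against 3 and 3 in WT. The medians of TDG KO lay above those of WT, but 2 lists a genotype cannot give an exact permutation p under 0.333, and weak peaks fall at different percentiles in lists of different length.

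**Figure D5:**
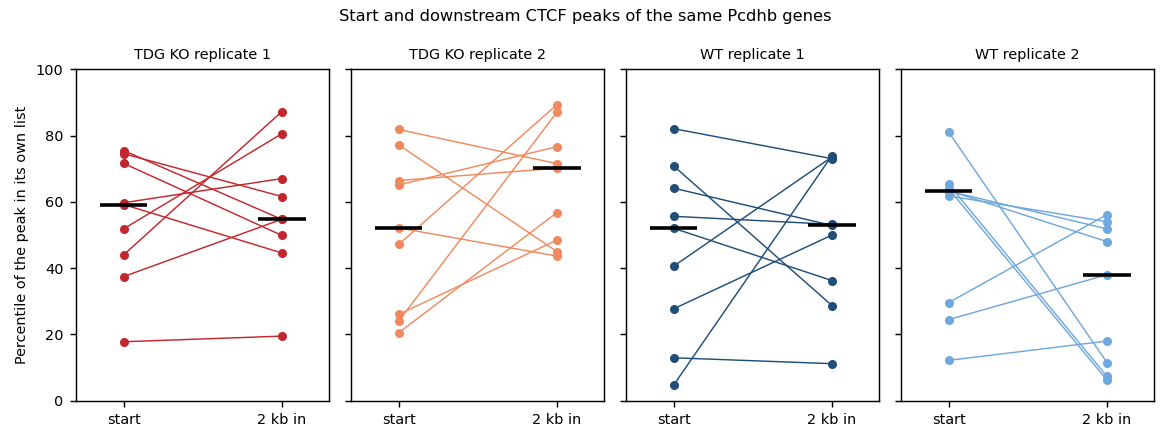
Percentile of the start peak and of the peak about 2 kb downstream in the same list, with 1 line per gene for 9 Pcdhb genes and 1 panel for each of the 2 TDG KO and 2 WT lists; black bars are medians. The downstream median is 54.8 and 70.2 in TDG KO and 52.9 and 38.0 in WT, and lines cross in every panel.

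Between the groups of genes, 2 regions in all 4 lists lay downstream of the Pcdha constant exons, from 37217264 to 37217612 and from 37218243 to 37218557. The enhancer HS5-1, which loops to Pcdha promoters, is known to lie in this interval, and the files do not annotate it. The region further downstream was at percentiles 69.3 and 59.6 in TDG KO and 44.7 and 41.2 in WT, and the other one was at 23.9 and 41.6 in TDG KO and 19.5 and 19.1 in WT. Regions in all 4 lists made up 13 of 17 regions within Pcdha, 29 of 39 within Pcdhb and 24 of 26 within Pcdhg.

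Levels of RNA were set beside the presence of a start peak. The 44 named members with a start peak in all 4 lists had mean levels from 0 to 1.01 FPKM, with a median of 0.0181 FPKM, and 27 of them were under 0.1 FPKM. The 5 members with a start peak in 1 to 3 lists were all under 0.1 FPKM, with a median of 0.00288 FPKM. The 8 members with no start peak ran from 0.00164 to 36.1 FPKM, with a median of 0.245 FPKM, and 4 of them were under 0.1 FPKM. Pcdhgc4 and Pcdhgc3, the highest members of the locus, were among these 8, as was Pcdhga12, whose peak lay further into the gene. The place of Pcdhgc4 among them rests on the gene name table. The authors list that row as Pcdhga8, whose start had a peak in all 4 lists. This is a description over genes that share promoters' sequence and constant exons, and it carries no test.

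Pcdhb20, whose start peak was in the TDG KO lists alone, had RNA of 0.0169 and 0.0136 FPKM in TDG KO, against 0.0378 and 0.0196 FPKM in WT. The TDG KO libraries were thus below the WT libraries, at a level where the difference did not pass the test with no filter (limma adjusted p = 0.516). Pcdhga4, the member called lower at the wider filter, had a start peak in all 4 lists, at percentiles 77.3 and 64.7 in TDG KO and 69.4 and 80.8 in WT.

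Of 24 tested genes listed as regulators of protocadherin promoters, 15 were lower and 3 higher in TDG KO (median log2 change -0.30, against -0.044 over all tested genes), and with upper-quartile scaling 10 were lower and 3 higher (median -0.18, against 0.066). Over all tested genes 29.5% were lower and 24.4% higher, or 18.4% and 32.0% with upper-quartile scaling. Ctcf itself had 42.4 and 41.1 FPKM in TDG KO, against 48.8 and 52.5 FPKM in WT, a log2 change of -0.27 (SE 0.064, limma adjusted p = 0.0118), which upper-quartile scaling took to -0.15 (limma adjusted p = 0.0732). Of the cohesin genes, whose ring is stopped by CTCF, Rad21 fell by 0.47, Stag1 fell by 0.61 and Stag2 fell by 0.64 on the log2 scale, and the cohesin loader Nipbl fell by 0.67. Smc1a fell by 0.40, and the log2 changes of Smc3 (-0.29) and Pds5a (-0.35) passed the test but lost it with upper-quartile scaling (limma adjusted p = 0.0924 and 0.0658). Setdb1, a histone methyltransferase known to act at the locus in mouse neurons, fell by 0.53, and Smchd1, a known silencer of the locus, had 16.7 and 16.1 FPKM in TDG KO against 16.4 and 19.0 FPKM in WT and did not pass the test under either scaling. The 3 that rose were the DNA methyltransferases Dnmt3a (log2 change 1.44) and Dnmt3b (1.05) and the CTCF paralogue Ctcfl (1.29). The DNA methyltransferase Dnmt1 went the other way (log2 change -0.29). It passed the test but lost it with upper-quartile scaling (limma adjusted p = 0.0611). Tet2, which oxidises 5-methylcytosine, fell by 1.53 on the log2 scale. Tet1 was also called lower (log2 change -0.56), a call lost with upper-quartile scaling (limma adjusted p = 0.0924).

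Partners that act downstream of protocadherins were split, with 4 higher and 7 lower of 17 tested (median log2 change -0.12), or 4 higher and 4 lower with upper-quartile scaling (median -0.020). Over all tested genes 24.4% were higher and 29.5% lower, or 32.0% and 18.4% with upper-quartile scaling, so the counts of partners lay near the background. In the WAVE complex, which drives actin branching, Cyfip2, Brk1 and Wasf1 rose with log2 changes of 0.76, 0.46 and 0.23, while Cyfip1 fell by 0.54, Nckap1 and Abi1 each fell by 0.49 and Wasf2 fell by 0.19. The call of Wasf2 was lost with upper-quartile scaling. Ptk2b, a kinase that protocadherin tails are known to bind, rose with a log2 change of 0.43, and its relative Ptk2 had 20.6 and 19.7 FPKM in TDG KO against 20.1 and 21.3 FPKM in WT. Of the protocadherins and large cadherins outside the locus, 4 of 22 were tested, 1 of which rose and 2 fell, or 2 and 1 with upper-quartile scaling, which added Fat1 to the higher and took Celsr1 from the lower. Pcdh1, a protocadherin with its own single gene nearby on the same chromosome, had 2.35 and 2.31 FPKM in TDG KO against 0.755 and 0.648 FPKM in WT, a log2 change of 0.97 (SE 0.102, limma adjusted p = 4.56e-04). Pcdh7, lower under both scalings, had 0.834 and 0.765 FPKM in TDG KO against 1.79 and 1.38 FPKM in WT. Its log2 change was -0.52 (SE 0.121, limma adjusted p = 0.0109).

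Of 15 listed neural markers 9 were tested, 8 of which rose and 0 fell in TDG KO (median log2 change 0.74, where 24.4% of all tested genes were called higher and 29.5% lower), as with upper-quartile scaling, and the summed level of the list was 226 and 241 FPKM in TDG KO, against 134 and 138 FPKM in WT. The 1 tested neural marker that did not pass the test was Ncam1 (limma adjusted p = 0.562). Of the 6 markers too low to be tested, Sox1, a transcription factor of neural progenitors, had 0.169 and 0.174 FPKM in TDG KO, against 0.561 and 0.576 FPKM in WT. Nes, an intermediate filament of neural progenitors, had 11.7 and 10.8 FPKM in TDG KO, against 2.90 and 2.70 FPKM in WT. No listed neural marker was at 0 in all 4 libraries, and their part in the Pcdhgc4 value was not tested.

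Taf7, a subunit of the general transcription factor TFIID that lies inside the locus, was the 1 of its 27 other genes that was tested, and it had 44.3 and 44.2 FPKM in TDG KO against 51.1 and 61.1 FPKM in WT (log2 change -0.33, SE 0.089, limma adjusted p = 0.019), but did not pass with upper-quartile scaling (log2 change -0.21, limma adjusted p = 0.0547). Of 20 tested genes within 500 kb on either side, 2 rose and 7 fell (median log2 change -0.095), or 4 and 3 with upper-quartile scaling (median 0.021). Over all tested genes 24.4% rose and 29.5% fell, or 32.0% and 18.4% with that scaling, so these counts were no result about the neighbourhood. Diap1, an actin nucleator, rose with Pcdh1, at 36.8 and 37.7 FPKM in TDG KO against 30.0 and 30.9 FPKM in WT. The largest fall was that of Gnpda1, a glucosamine-phosphate deaminase, at 37.6 and 37.6 FPKM in TDG KO against 63.6 and 62.1 FPKM in WT.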

How the data were processed

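RNA-seq of polyadenylated RNA and CTCF ChIP-seq were analysed in 2 TDG KO and 2 WT libraries each; the polymerase II, IgG and input libraries were not used here. The authors deposited FPKM per gene and library, and a table of the comparison with log2 folds (WT over TDG KO), p-values and q-values, per the file headers. They deposited a peak list per CTCF library with a score per peak. TopHat2 2.1.1, Cufflinks 2.2.1, Cuffdiff, MACS2 2.2.1, deepTools, Bowtie2 2.2.9 and mm10 are named in the submitters' processing notes, without roles. The sources used here give no peak threshold, control or read depth.

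Members were taken by symbol, with no filter. Their Ensembl IDs all matched the gene name table, 57 of 58 under the listed symbol. Limma 3.58.1 (R 4.3.3, trend) tested log2(FPKM + 1) in 12035 genes (mean FPKM 1 or more), with Benjamini-Hochberg adjustment over all of them at 0.05, 2-sided; such log2 changes understate the change of low genes. The fit was tested on simulated data. Named genes were all members with a mean of at least 1 FPKM, the 5 highest of each group of genes, and exceptions stated in place. CTCF peaks were merged at an overlap of at least 1 bp. Gene starts came from RefSeq (GRCm38.p6), whose table gives no strand. Alternatives covered the pseudocount, filter, scaling, trend, replicate block, leaving out each library, overlap and list length. The members, gene lists and tests were chosen with earlier results of these data known. Same-numbered RNA libraries did not deviate together (r = -0.0157 over 12035 genes). With 1 difference per genotype, this cannot tell whether same-numbered libraries were made together.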

Additional observations from a re-analysis of the deposited data

How the results depend on the processing

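The number of clustered protocadherins called was 1 at a mean of at least 1 FPKM. It was 2 with no filter, 2 at a mean of at least 0.1 FPKM, 2 at that filter with a pseudocount of 0.1 (chosen after seeing the data), and 1 to 2 when each library was left out, the 2 being without WT replicate 2. The log2 change of Pcdhga12 was 0.042 with upper-quartile scaling and -0.10 to 0.032 when each library was left out, being 0.011 without TDG KO replicate 2 and 0.032 without WT replicate 1; the cause was not tested. The log2 change of the Pcdhg sum was -0.23 without Pcdhgc4, since Pcdhgc4 holds most of that sum.

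Regions in both TDG KO lists alone numbered 2, or 0 in lists of equal length, and 3 to 5 when each list was left out, where 1 list stands for a genotype. Regions in both WT lists alone numbered 0, or 3 in lists of equal length, and 0 to 2 when each list was left out. Regions in all 4 lists numbered 69 of 87, or 64 of 77 in lists of equal length and 51 of 75 with the lowest-scoring peaks of each list left out. When each list was left out in turn, 70 to 72 regions were in all the remaining lists.

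Genes called over the whole table ranged from 4819 to 7446 of those tested, the lowest being without WT replicate 2. With the replicate block 6696 genes were called and again 1 member, and the block changed no call of a member. FPKM tables hold no counts, so depth limits the Pcdha and Pcdhb rows in a way that cannot be stated as an interval, and no genome sequence was used here to look for CTCF motifs.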
